A study of Homo sapiens with 6 samples.

Results

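The 58 genes described here encode proteins that make ribosomes in the nucleolus. They were taken from a list of names and sorted by the step in which their proteins act: 9 for transcription by RNA polymerase I (Pol I), 9 for the small nucleolar ribonucleoproteins (snoRNPs), 22 for the small ribosomal subunit, 15 for the large subunit, and 3 that act at several steps. All 58 passed the filter on low counts and so were among the 22580 genes tested. RNA was sequenced from 6 separate cultures of A375, a line of human melanoma cells obtained from ATCC. In 3 cultures (replicates 4, 5 and 6) hMGL had been applied for 24 h, and 3 cultures (replicates 1, 2 and 3) were left untreated as controls. hMGL is a human enzyme engineered to degrade methionine, and both groups grew in the same serum-supplemented medium. The comparison asks how mRNA levels differed after a day with the enzyme.

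Ribosome production starts when Pol I copies ribosomal DNA into a long precursor RNA that holds the rRNA of the small subunit and most of the rRNA of the large subunit. snoRNPs guide methylation and pseudouridylation of that precursor, and large sets of assembly factors then fold, cut and export the 2 subunits. The pathway uses much of the energy of a growing cell, its genes are known targets of MYC, and the methylation steps take their methyl groups from S-adenosylmethionine, which cells make from methionine.

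A motif shared by many of these genes is the E-box CACGTG, which MYC and related factors can bind and which reads the same on both strands. RefSeq promoter windows (GRCh38.p14, 250 bases before to 50 after a transcription start) were at hand for 48 of the 58 genes, and 19 of those 48 (39.6%) held the motif. By window the share was 33.3% of the 57 windows of these genes, against 7.26% of all 35116 windows and 8.84% of the 17756 windows of protein-coding genes tested. In 18 of the 19 genes a motif began within 40 bases of the start. RRP12, DDX52, DDX18, RRS1, RRP1B, NOLC1, NOP58, BOP1, URB2 and POLR1E had no window to search. The 5 stretches printed next are those in which the whole motif lay within the 100 bases before the start. They show how close to the start it sits in genes that rose with hMGL (DDX21, NOP10, UTP20, UTP4) and in one that fell (NAT10). Each runs 5′ to 3′ on the strand of its gene and ends at the base before the start, with the motif in capitals. They lie at chr10:68956547-68956646 (plus strand), chr15:34343137-34343236 (minus strand), chr12:101280005-101280104 (plus strand), chr16:69132549-69132648 (plus strand) and chr11:34105529-34105628 (plus strand).
DDX21: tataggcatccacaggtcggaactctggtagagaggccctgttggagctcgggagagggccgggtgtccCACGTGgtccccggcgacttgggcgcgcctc
NOP10: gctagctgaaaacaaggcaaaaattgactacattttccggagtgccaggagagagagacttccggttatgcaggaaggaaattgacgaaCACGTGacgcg
UTP20: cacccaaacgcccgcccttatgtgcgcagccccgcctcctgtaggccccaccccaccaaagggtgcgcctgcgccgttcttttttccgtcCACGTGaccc
UTP4: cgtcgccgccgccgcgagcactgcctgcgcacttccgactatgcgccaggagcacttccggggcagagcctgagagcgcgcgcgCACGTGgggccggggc
NAT10: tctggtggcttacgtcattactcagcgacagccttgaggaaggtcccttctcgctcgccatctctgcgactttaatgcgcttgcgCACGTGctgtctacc

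Genes with and without the motif had the same median response to 2 decimals. The 19 genes with it had a median log2 fold change of 0.30, and 14 rose, 3 fell and 2 did not pass the test. The 29 genes with a window but no motif had a median of 0.30 as well, with 20 that rose, 6 that fell and 3 that did not pass.

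Libraries held 50760266 to 53682075 estimated counts in the hMGL group and 53441686 to 59954677 in the control group. Replicates varied little (edgeR's common coefficient of biological variation was 0.074), so small differences could pass the test, and most genes did. Levels are given as CPM, counts scaled to a common library size by TMM, which sets the typical gene to no change. In bulk RNA, fewer cells of one kind and less of an RNA per cell cannot be told apart, and a shift in the RNA content of the whole cell is not visible. SOX10, a defining gene of the melanocyte lineage, was at 346 to 358 CPM in hMGL libraries and 396 to 453 CPM in control libraries, MITF was at 41.0 to 41.7 CPM in hMGL libraries and 42.0 to 45.7 CPM in control libraries, and MLANA and PMEL were at most 2.16 CPM in any library. S100B, another marker, was at 4.89 to 7.07 CPM in hMGL libraries and 37.7 to 39.3 CPM in control libraries. Of 6 markers of other cell types, PTPRC, EPCAM and CD3E did not pass the filter, PECAM1 and COL1A1 stayed under 2 CPM, and CD68 was at 35.6 to 38.5 CPM in hMGL libraries and 29.5 to 32.5 CPM in control libraries. The part of these marker differences in the results that follow was not tested. Transcripts without a gene match took 5.05% to 5.13% of the counts in hMGL libraries and 4.86% to 5.01% in control libraries.

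More of the 58 genes rose than fell with hMGL. At an adjusted p under 0.05 in edgeR's quasi-likelihood test, 39 rose, 14 fell and 5 (GNL3, WDR12, MDN1, NCL and HEATR1) did not pass, while 34.9% of all genes tested rose and 34.5% fell (69.4% in either direction). Among the 15421 protein-coding genes tested, 38% rose and 40.3% fell. In the test against a minimum change of 1.5-fold, 17 of the 58 rose and 2 fell (NPM1 and FBL), beside 18.7% and 16.7% of all genes (19.4% and 19.5% of protein-coding genes). Past 2-fold, 9 rose and only NPM1 fell, beside 10.2% and 7.96%. The median log2 fold change was 0.26 over the 58 genes, −0.02 over all genes and −0.03 over protein-coding genes. All 3 hMGL libraries lay above all 3 control libraries for 40 genes (36.7% of all genes), below them for 14 (36.5%), and overlapped them for 4.

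**Figure D1:**
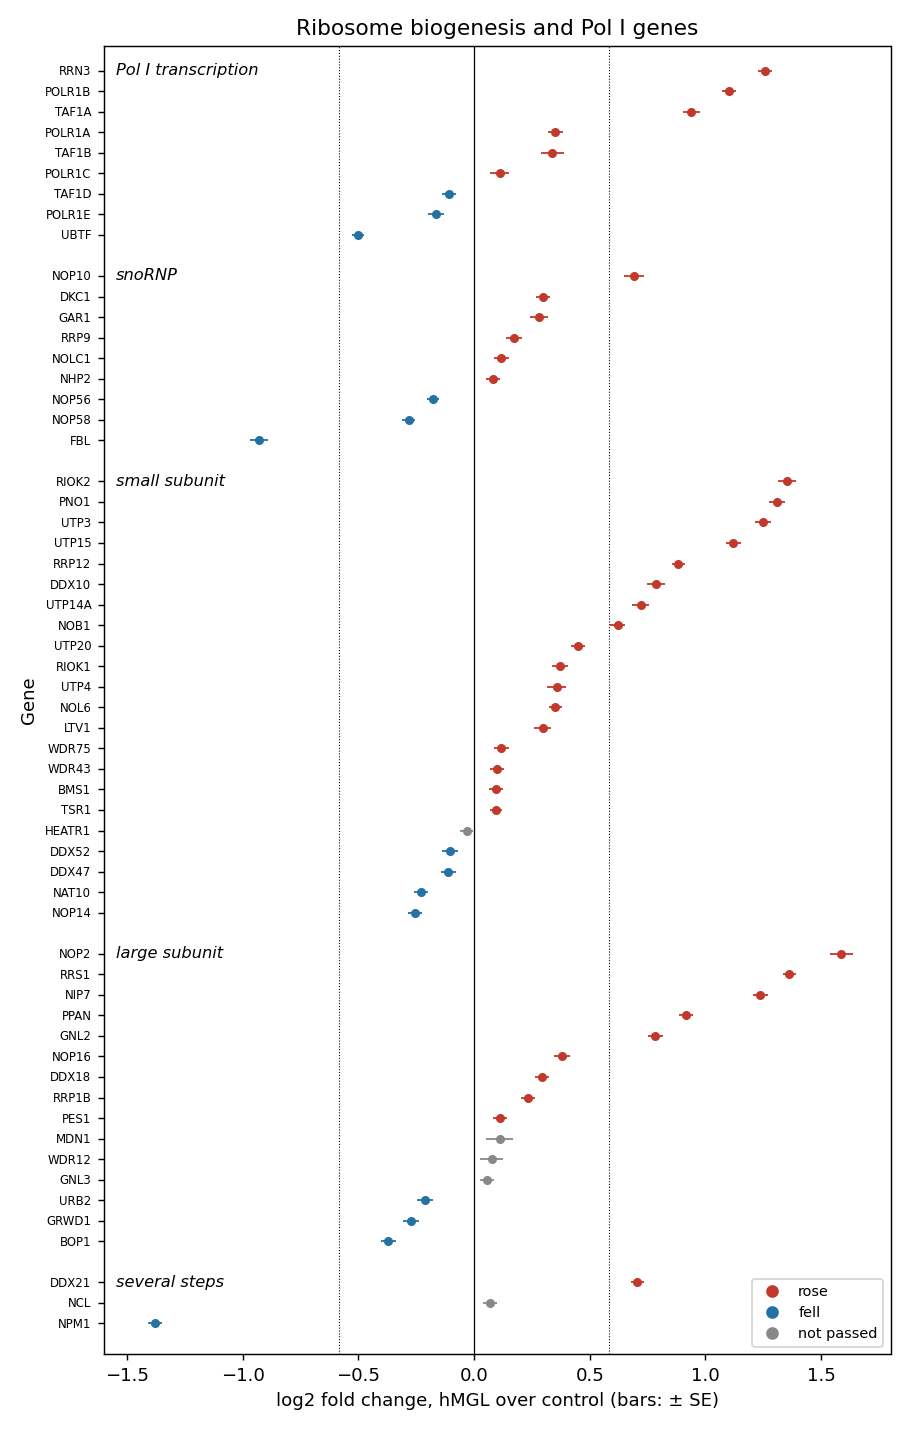
Log2 fold change (hMGL over control, from edgeR) of each of the 58 genes, sorted by step, with bars of 1 SE; dotted lines mark a 1.5-fold change. Every step holds genes on both sides of 0, and the longest shifts were the rise of NOP2 (1.59) and the fall of NPM1 (−1.38).

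Summed over the 58 genes, the level was 12893, 13180 and 13383 CPM in hMGL libraries, against 12832, 12372 and 12747 CPM in control libraries. NPM1 was the largest single part of it in every library. Without it, the other 57 genes summed to 11733, 11994 and 12171 CPM in hMGL libraries and to 9732, 9344 and 9614 CPM in control libraries. Neither sum overlapped between the groups. NPM1 also had the deepest fall of the 58 genes, so leaving it out by itself widens the difference between the groups.

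Among the 9 genes of Pol I transcription, 6 rose and 3 fell, with a median log2 fold change of 0.34. The share that rose was 66.7%, beside 34.9% of all genes and 38% of protein-coding genes. The count that fell was near the 34.5% of all genes, while 40.3% of protein-coding genes fell. The largest rise was that of RRN3, the factor that makes Pol I competent to start and links it to growth signals. RRN3 had 219, 208 and 213 CPM in the hMGL libraries, against 89.8, 87.5 and 90.4 CPM in the control libraries. The groups were far apart: the log2 fold change was 1.26 ± 0.03 (SE), 2.39-fold higher (adjusted p = 3.11e-16). Pseudogene records of RRN3 took 7.28% of the summed counts in hMGL cells and 10.5% in control cells, so reads shared with them leave its exact level uncertain.

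Both catalytic subunits of the polymerase rose, but by different amounts. POLR1B, the second-largest subunit, had 228, 228 and 234 CPM in the hMGL libraries, against 111, 105 and 106 CPM in the control libraries. Its log2 fold change was 1.10 ± 0.03 (SE, adjusted p = 1.45e-15). POLR1A, the largest subunit, had 164, 171 and 175 CPM in the hMGL libraries, against 132, 130.3 and 137 CPM in the control libraries. This smaller rise also left the groups apart, at 0.35 ± 0.03 (SE, adjusted p = 2.48e-08). POLR1C, a subunit shared with RNA polymerase III, rose by 0.11 (adjusted p = 0.0231), a call that ended without control replicate 2 (adjusted p = 0.107) and in DESeq2 (adjusted p = 0.0646). POLR1E, a Pol I subunit also known as an associated factor of the enzyme, had 51.9, 50.8 and 51.6 CPM in the hMGL libraries, against 58.5, 56.3 and 58.3 CPM in the control libraries. All 3 hMGL values lay just under the lowest control value, and the log2 fold change was −0.17 ± 0.04 (SE, adjusted p = 0.000441). On TPM it was −0.07, which did not pass.

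The promoter factors were split. UBTF, which binds the ribosomal DNA promoter and keeps the repeats open, had 176, 178 and 175 CPM in the hMGL libraries, against 254, 246 and 249 CPM in the control libraries. The groups did not overlap and UBTF was 1.42-fold lower (adjusted p = 1.84e-11). TAF1A, TAF1B and TAF1D belong to the selectivity factor that recruits Pol I with TBP. TAF1A was 1.92-fold higher (log2 fold change 0.94 ± 0.04, SE, adjusted p = 1.06e-13) and TAF1B 1.26-fold higher (adjusted p = 1.13e-05). TAF1D, as a gene sum, had 161, 167 and 161 CPM in the hMGL libraries, against 176, 175 and 176 CPM in the control libraries. That is a small fall, −0.11 ± 0.03 on the log2 scale (SE, adjusted p = 0.00298), which did not pass with library totals as the only scaling or on TPM.

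**Figure D2:**
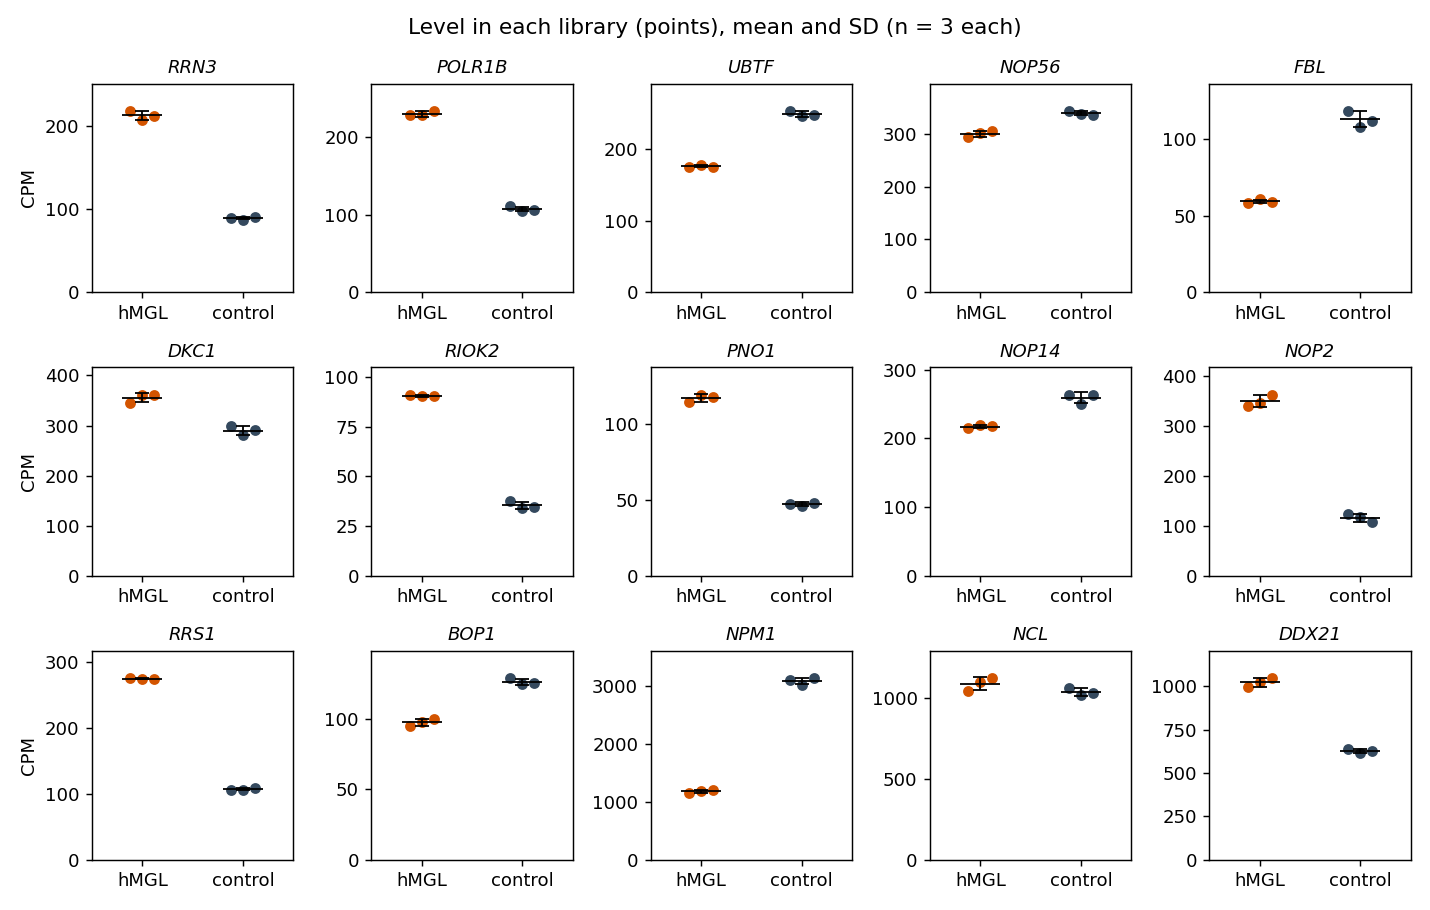
CPM (TMM-scaled) of 15 of the genes in each library, with hMGL on the left and control on the right of each panel; points are libraries, the horizontal mark is the mean and the bars are SD (n = 3 each), and each vertical axis starts at 0. NPM1 sits at 1160 to 1212 CPM in hMGL libraries and at 3028 to 3132 CPM in control libraries, while NCL overlaps.

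The 9 snoRNP genes had a median log2 fold change of 0.12, with 6 that rose and 3 that fell. Over all genes, 34.9% rose and 34.5% fell, so the count of falls was near that background. Among protein-coding genes, 38% rose and 40.3% fell. Past 1.5-fold, 11.1% of the snoRNP genes rose, beside 18.7% of all genes. The 4 core proteins of the box H/ACA particle, which isomerises uridine to pseudouridine, all rose. NOP10 had 127, 136 and 134 CPM in the hMGL libraries, against 86.7, 76.9 and 82.4 CPM in the control libraries. It was the only snoRNP gene past 1.5-fold upward, 1.61-fold higher (adjusted p = 1.95e-09). DKC1, the pseudouridine synthase, had 345, 361 and 362 CPM in the hMGL libraries, against 298, 281 and 291 CPM in the control libraries. The values did not overlap, and DKC1 was 1.23-fold higher (adjusted p = 1.18e-07). GAR1 rose by 0.28 and NHP2 by 0.08 on the log2 scale, and NHP2 did not pass on log2(TPM + 1) (adjusted p = 0.0518).

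The mRNAs of 3 core proteins of the box C/D particle, which methylates ribose in rRNA, fell as gene sums, although NOP56 rose when its coding transcripts alone were counted. FBL, the methyltransferase itself, had 58.4, 60.5 and 58.7 CPM in the hMGL libraries, against 118, 108 and 112 CPM in the control libraries. The hMGL values were near 59 CPM with almost no spread, and FBL was 1.91-fold lower (adjusted p = 2.06e-13). Its transcripts FBL-201, FBL-202 and FBL-206 averaged 8.60, 14.9 and 17.5 TPM in hMGL cells, against 15.7, 26.3 and 29.7 TPM in control cells. FBL-207 averaged 2.9 TPM in hMGL cells and 2.6 TPM in control cells, and FBL-211 averaged 3.4 and 10.9 TPM. Both were at or near 0 in some libraries of each group, so the split between transcripts was unsteady. NOP58 had 185, 187 and 189 CPM in the hMGL libraries, against 231, 222 and 231 CPM in the control libraries. NOP58 was 1.22-fold lower (adjusted p = 8.24e-08), and on TPM its fall of 0.17 did not pass (adjusted p = 0.0936 and 0.0885). NOP56 had 294, 302 and 306 CPM in the hMGL libraries, against 344, 339 and 337 CPM in the control libraries. That fall, −0.18 ± 0.03 (SE, adjusted p = 1.57e-05), was 0.39 (adjusted p = 2.64e-06) in the fit on transcripts annotated as protein-coding. RRP9, a protein specific to the U3 particle, and NOLC1, a snoRNP chaperone, rose by 0.17 and 0.12, and NOLC1 did not pass with the effective-length offset (adjusted p = 0.0543).

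Of the 22 small-subunit genes, 17 rose, 4 fell and HEATR1 did not pass, with a median log2 fold change of 0.35. The share that rose was 77.3%, beside 34.9% of all genes, while 34.5% of all genes fell. The highest fold changes were those of RIOK2 and PNO1, both of late steps. RIOK2, a kinase of the late precursor, had 91.2, 90.3 and 90.4 CPM in the hMGL libraries, against 37.6, 34.3 and 34.7 CPM in the control libraries. It was 2.55-fold higher (adjusted p = 2.7e-15). PNO1, which holds the cleavage site of the precursor, had 115, 119.5 and 118 CPM in the hMGL libraries, against 47.5, 46.0 and 48.4 CPM in the control libraries. It was 2.48-fold higher (adjusted p = 7.04e-16), with no overlap. NOB1, the endonuclease that makes the final cut and the partner of PNO1, had 119.8, 122 and 122 CPM in the hMGL libraries, against 79.8, 75.9 and 80.2 CPM in the control libraries. NOB1 was 1.54-fold higher but did not pass the test against 1.5-fold (adjusted p = 0.118). RIOK1 and LTV1, of the same late steps, rose by 0.37 and 0.30, and TSR1 by 0.09.

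Among early processome factors, UTP3 was 2.38-fold higher and UTP15, a subunit of the UTP-A complex that binds the nascent precursor, was 2.17-fold higher. Of the other UTP-A genes among the 58, UTP4 rose by 0.36, WDR75 by 0.12 and WDR43 by 0.10. WDR75 and WDR43 did not pass with the effective-length offset (adjusted p = 0.116 and 0.266) or on TPM. On coding transcripts alone the change of WDR75 was 0.04, which did not pass (adjusted p = 0.254). HEATR1, also of the UTP-A complex, had 404, 403 and 413 CPM in the hMGL libraries, against 416, 404 and 427 CPM in the control libraries. These values overlapped, and the log2 fold change of −0.03 ± 0.03 (SE, adjusted p = 0.341) took either sign across the alternatives, between −0.09 with the effective-length offset, where it passed (adjusted p = 0.0282), and 0.04 with library totals. It was also above 0, at 0.01, without hMGL replicate 4 or without hMGL replicate 5. UTP20, a large scaffold of the particle, had 234, 240.4 and 245 CPM in the hMGL libraries, against 175, 171 and 181 CPM in the control libraries. It rose by 0.45 (adjusted p = 3.29e-10). RRP12, an export factor, DDX10, a helicase, and UTP14A, whose yeast counterpart activates the helicase that dismantles the processome, rose by 0.88, 0.79 and 0.72, each past the test against 1.5-fold. NOL6 rose by 0.35. BMS1, a GTPase of the particle, rose by 0.10 (adjusted p = 0.0102) but did not pass on TPM (adjusted p = 0.082 and 0.0816), and its 20 pseudogene and related records took 18.0% of the summed counts in hMGL cells and 9.81% in control cells.

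The 4 small-subunit genes that fell did so by little. NOP14 had 215, 219 and 218 CPM in the hMGL libraries, against 263, 249.9 and 263 CPM in the control libraries. NAT10, which acetylates cytidine in the rRNA of the small subunit, had 124, 122 and 126 CPM in the hMGL libraries, against 148, 143 and 146 CPM in the control libraries. Neither overlapped, and the log2 fold changes were −0.25 ± 0.03 and −0.23 ± 0.03 (SE, adjusted p = 5.07e-07 and 2.26e-06). On TPM they were −0.16 and −0.10 and did not pass. The helicases DDX47 and DDX52 fell by 0.11 and 0.10. The call of DDX47 ended without hMGL replicate 5 (adjusted p = 0.0995) and on coding transcripts alone (adjusted p = 0.0823). That of DDX52 ended without control replicate 3, hMGL replicate 5 or hMGL replicate 6 (adjusted p = 0.084, 0.13 and 0.171). It also ended with no filter (adjusted p = 0.0767). Neither gene passed on TPM or with library totals alone. On coding transcripts alone DDX52 was 0.15 higher on the log2 scale (adjusted p = 0.0159).

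Of the 15 large-subunit genes, 9 rose, 3 fell and 3 did not pass, with a median log2 fold change of 0.23. The share that rose was 60%, beside 34.9% of all genes, while 34.5% of all genes fell. NOP2, an rRNA cytosine methyltransferase, had 339, 346 and 362 CPM in the hMGL libraries, against 123, 118 and 107 CPM in the control libraries. It had the highest fold change of the 58 genes, 3.01-fold higher (adjusted p = 6.37e-10). RRS1, whose yeast counterpart helps to bring the ribonucleoprotein of a small rRNA into the particle, had 275, 274 and 273 CPM in the hMGL libraries, against 106, 105 and 108 CPM in the control libraries. It was 2.57-fold higher (adjusted p = 3.53e-17), with 3 hMGL values almost alike. NIP7, PPAN and GNL2, an assembly factor, a factor of the SSF family and a GTPase, were 2.36-fold higher, 1.89-fold higher and 1.72-fold higher, each past the test against 1.5-fold. The readthrough gene PPAN-P2RY11, which holds PPAN sequence, took 6.19% of their summed counts in hMGL cells and 8.56% in control cells. NOP16, DDX18 and RRP1B rose by 0.38, 0.29 and 0.23.

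PES1, BOP1 and WDR12 form one complex that is needed to process the large-subunit precursor, and their records did not move together. PES1 had 206, 217 and 218 CPM in the hMGL libraries, against 203, 194 and 197 CPM in the control libraries. It rose by 0.11 (adjusted p = 0.00416), with its pseudogene records at 6.48% of the summed counts in hMGL cells and 2.98% in control cells. BOP1 had 95.0, 98.0 and 100.1 CPM in the hMGL libraries, against 129, 125 and 125 CPM in the control libraries. It was 1.29-fold lower (adjusted p = 9.84e-09), without overlap. On TPM its log2 fold change was −0.20 to −0.21 and did not pass. WDR12 had 26.1, 26.4 and 24.7 CPM in the hMGL libraries, against 25.6, 24.5 and 23.2 CPM in the control libraries, which overlapped (adjusted p = 0.176). Its annotated coding transcript, WDR12-201, was listed at 0 in all 6 libraries, and 99.9% of its counts in hMGL cells and 99.7% in control cells fell on retained-intron transcripts, so the WDR12 mRNA was not measured here. The WDR12 call changed without hMGL replicate 6 (log2 fold change 0.13, adjusted p = 0.0326).

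The giant ATPase MDN1, whose yeast counterpart pulls factors off the precursor, had 148, 154 and 168 CPM in the hMGL libraries, against 139, 141 and 154 CPM in the control libraries. The log2 fold change was 0.11 ± 0.06 (SE, adjusted p = 0.121), and it passed in 4 of 15 alternatives, one of them without control replicate 3 (0.16, adjusted p = 0.0121). GNL3, also known as nucleostemin, had 228, 233 and 234 CPM in the hMGL libraries, against 224, 218 and 227 CPM in the control libraries. The hMGL values lay just above the control values, 0.06 ± 0.03 (SE, adjusted p = 0.091), and the gene passed in 7 of 15 alternatives, among them those without hMGL replicate 4, 5 or 6 (adjusted p = 0.00196, 0.0188 and 0.0166). GRWD1, a histone-binding factor, had 109.6, 107 and 106 CPM in the hMGL libraries, against 130.4, 124 and 135 CPM in the control libraries. It fell by 0.27 and URB2 by 0.21, both without overlap, and neither passed on TPM (adjusted p of 0.0787 to 0.081 for GRWD1 and 0.612 to 0.615 for URB2).

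The 3 genes with roles at several steps went separate ways. NPM1, nucleophosmin, a histone chaperone and structural protein of the nucleolus, had 1160.1, 1186 and 1212 CPM in the hMGL libraries, against 3099, 3028 and 3132 CPM in the control libraries. No value of one group came near the other, and NPM1 was 2.60-fold lower (log2 fold change −1.38 ± 0.03, SE, adjusted p = 3.94e-17). It was still the most abundant of the 58 in both groups by TPM, which is per length, at 963 TPM in hMGL cells and 2396 TPM in control cells. The 2 main coding transcripts differed in size of change: NPM1-201 had 822, 752 and 739 TPM in hMGL libraries against 2214, 2198 and 2039 TPM in control libraries, while NPM1-203 had 185, 171 and 182 TPM in hMGL libraries against 220.2, 223 and 194 TPM in control libraries. The 45 pseudogene records of NPM1 took under 1% of the summed counts in either group.

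NCL, nucleolin, which binds the precursor RNA, had 1043, 1101 and 1121 CPM in the hMGL libraries, against 1063, 1018 and 1034 CPM in the control libraries. These overlapped, and its log2 fold change of 0.07 ± 0.03 (SE, adjusted p = 0.0619) passed in 10 of 15 alternatives, including those without control replicate 1 (adjusted p = 0.0248) and without hMGL replicate 4, 5 or 6 (adjusted p = 7.8e-05, 0.0236 and 0.0205). By TPM it ranked second in both groups. DDX21, a helicase that acts in Pol I transcription and in rRNA processing, had 995, 1026 and 1044 CPM in the hMGL libraries, against 639, 613 and 628 CPM in the control libraries. It was 1.63-fold higher (adjusted p = 2.66e-13), past the test against 1.5-fold.

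**Figure D3:**
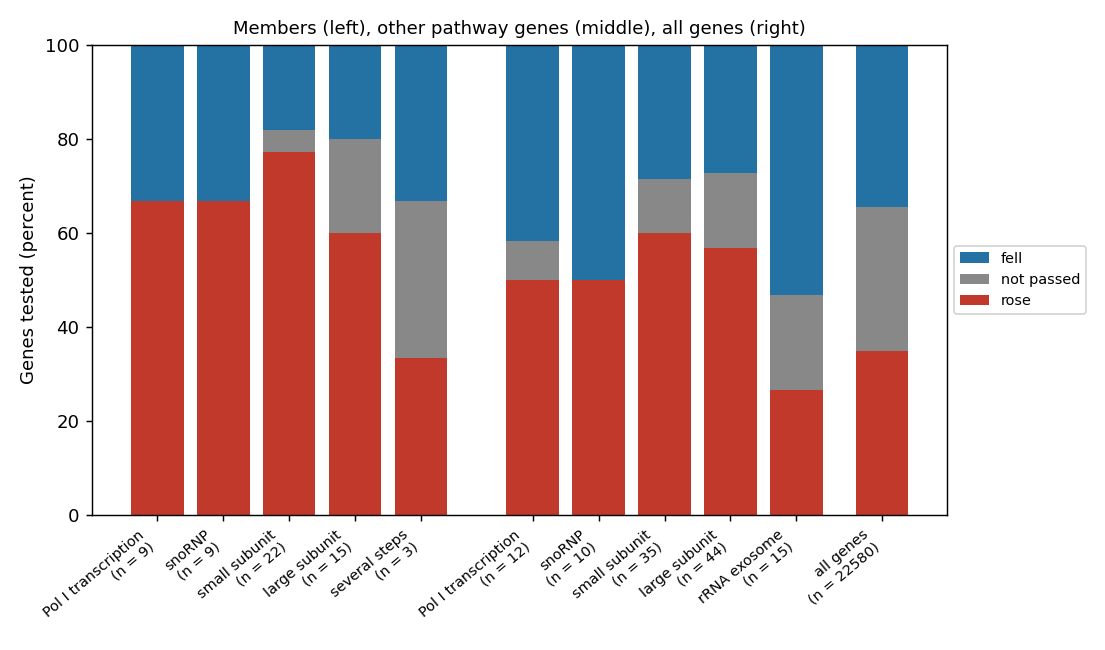
Percent of genes tested that rose, did not pass or fell (edgeR, adjusted p under 0.05), by step, for the 58 genes (left), for 116 other genes of the pathway (middle) and for all 22580 genes (right). The share that rose was 77.3% in the small-subunit step of the 58 genes, 26.7% among the exosome genes and 34.9% over all genes.

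The rest of the pathway was read from a further list of 116 genes, whose median log2 fold change was 0.19. Of these genes, 61 rose, 40 fell and 15 did not pass. Over all genes, 34.9% rose and 34.5% fell, and over protein-coding genes 38% rose and 40.3% fell. This list had more rises (52.6%) than either background. Its falls were near the share of all genes and under that of protein-coding genes. Past 1.5-fold, 31 of the list rose (26.7%) and 13 fell, beside 18.7% and 16.7% of all genes. The small-subunit genes (21 of 35 rose and 10 fell) and large-subunit genes (25 of 44 rose and 12 fell) had the higher medians, 0.26 and 0.38. RIOK3, a kinase related to RIOK1 and RIOK2, was 4.04-fold higher and UTP25 2.73-fold higher, while BUD23, an rRNA guanine methyltransferase, and NOC4L fell by 0.45 each. MAK16 and REXO4 were 2.29-fold higher and 2.13-fold higher. NOC2L fell by 0.74 and DDX54 by 0.68. The deepest fall of the list was that of LAS1L, the endonuclease that cuts the spacer of the large-subunit precursor, with 13.6, 16.5 and 12.7 CPM in the hMGL libraries, against 57.2, 55.9 and 51.0 CPM in the control libraries. Its log2 fold change was −1.94 ± 0.11 (SE, adjusted p = 2.6e-05), and LAS1L is named here for that value.

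Of the other 12 Pol I genes, 6 rose and 5 fell, beside 34.9% and 34.5% of all genes. POLR1F, a subunit of Pol I, had 135, 136 and 135 CPM in the hMGL libraries, against 63.9, 61.0 and 66.0 CPM in the control libraries, and POLR1D, shared with RNA polymerase III, was 1.77-fold higher. POLR2F and POLR2L, which are shared by all nuclear RNA polymerases, were 2.09-fold lower and 1.78-fold lower. Among 10 other snoRNP genes, 5 rose and 5 fell, beside the same 34.9% and 34.5% of all genes. SHQ1, the chaperone of DKC1, rose by 0.93 and ZNHIT6, an assembly factor of the C/D particle, by 0.60. PIH1D1 and RUVBL2, of the R2TP assembly machinery, fell by 0.76 and 0.34. The nuclear exosome and related nucleases, which trim and destroy precursor RNA, had more falls than rises: 4 of 15 rose, 8 fell and none rose past 1.5-fold, while 5 fell past it, beside 34.5% of all genes that fell and 16.7% that fell past 1.5-fold. XRN2, a 5′ exonuclease, had 119.7, 122 and 122 CPM in the hMGL libraries, against 222, 215 and 217 CPM in the control libraries. EXOSC10 fell by 0.71, and EXOSC6 and DIS3 rose by 0.45 and 0.41.

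Of the RNAs that the pathway makes or uses, few could be read. RNA5-8SN1, a record of the smallest RNA cut from the Pol I precursor, had 45.2, 53.2 and 45.9 CPM in the hMGL libraries, against 116, 86.0 and 98.7 CPM in the control libraries. It was 2.09-fold lower (adjusted p = 0.00279). The other records of the Pol I precursor and its rRNAs that were searched for by name were not among the matched genes. The RNA of the U3 particle, from SNORD3A, had 404, 401 and 319 CPM in the hMGL libraries, against 527, 384 and 524 CPM in the control libraries, which overlapped (adjusted p = 0.159). Its copies SNORD3B-1 and SNORD3B-2 fell by 0.92 and 0.58. The copy SNORD3C, at most at 0.625 CPM, overlapped and did not pass (log2 fold change −0.45, adjusted p = 0.411), and SNORD3D had no counts. Reads of these near-identical genes can be split between them. SNORD13, a guide for acetylation of the small-subunit rRNA with NAT10, had 3.35, 3.51 and 3.36 CPM in the hMGL libraries, against 1.54, 1.83 and 1.57 CPM in the control libraries, and rose by 1.05 (adjusted p = 1.71e-06). RMRP, the RNA of the enzyme that cuts the first spacer, had 2 gene records. The one with most counts had 5679.8, 5902 and 5684 CPM in the hMGL libraries, against 6110.3, 6119 and 7033 CPM in the control libraries and fell by 0.16 (adjusted p = 0.032). The other record had 117, 85.7 and 85.3 CPM in the hMGL libraries, against 241, 148 and 155 CPM in the control libraries, and fell by 0.92 (adjusted p = 0.04). RPPH1, the RNA of RNase P, did not pass (log2 fold change −0.03, adjusted p = 0.732). How well short structured RNAs are captured depends on the library preparation, which the labels call standard without a selection method.

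A gene sum mixes transcripts that encode the protein with others that keep an intron, carry an early stop or have no reading frame. The share of TPM on transcripts annotated as protein-coding was therefore compared by limma on the log2 ratio of coding to other TPM (pseudocount 0.1). It was tested for 48 of the 58 genes. These include WDR12, whose coding TPM was 0 in every library, so its ratio rests on the pseudocount and does not measure a coding share. The share rose for NOP2, NOP56 and RRP1B and fell for NOLC1, TAF1A, TSR1 and PES1. These 7 of 48 stand beside 17.2% of the 9307 genes tested (6.46% up and 10.7% down), so the count is near the background. The median log2 change of the ratio was 0.03 for the 48 genes and −0.05 for all.

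NOP56 was the clearest case in which the gene sum and the coding transcripts went apart. Its coding share was 49.4%, 51.5% and 54.1% in hMGL libraries, against 30.4%, 31.1% and 30.4% in control libraries (log2 ratio change 1.27, adjusted p = 0.00221). The main coding transcript, NOP56-201, had 77.5, 73.3 and 73.6 TPM in hMGL libraries, against 53.6, 55.2 and 47.3 TPM in control libraries. NOP56-216, which is annotated without a reading frame, had 7.46, 6.10 and 6.22 TPM in hMGL libraries, against 42.0, 42.1 and 37.9 TPM in control libraries. The coding transcript was higher in every hMGL library than in any control library, and the noncoding one was lower.

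NOP2 also gained in coding share, with 91.2%, 91.7% and 91.5% in hMGL libraries, against 80.3%, 74.8% and 79.9% in control libraries (log2 ratio change 1.57, adjusted p = 0.00448). Its retained-intron transcripts stayed at 8.40 to 9.80 TPM in hMGL libraries and 6.85 to 10.6 TPM in control libraries, which overlap. RRP1B had a coding share above 97% in every library, and its change of 1.18 (adjusted p = 0.0206) rests on transcripts under 1 TPM. Its call ended without control replicate 2 or 3 or hMGL replicate 5 or 6 (adjusted p of 0.0529 to 0.0606).

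In the genes whose coding share fell, another class of transcript was higher with hMGL. Their coding TPM was also higher in every hMGL library than in any control library, so the share fell without a fall of the coding class. NOLC1-208, annotated as a target of nonsense-mediated decay, had 7.91, 6.55 and 6.99 TPM in hMGL libraries, against 2.27, 2.12 and 1.17 TPM in control libraries. The coding share of NOLC1 was 94.2%, 95.1% and 94.9% in hMGL libraries, against 98.0%, 98.1% and 98.6% in control libraries. That is a change of −1.61 on the log2 ratio (adjusted p = 0.00634). TAF1A-205, without a reading frame, had 12.1, 11.5 and 12.6 TPM in hMGL libraries, against 3.45, 1.88 and 1.62 TPM in control libraries. The coding share of TAF1A changed by −1.26 (adjusted p = 0.00955), while its coding TPM was 29.6, 27.4 and 26.3 in hMGL libraries. In control libraries that coding TPM was 16.9, 16.8 and 15.8. The decay class of TSR1 was at 6.57 to 7.02 TPM in hMGL libraries and 1.23 to 1.66 TPM in control libraries (ratio change −1.10, adjusted p = 0.00806). The change in PES1 was −0.89 (adjusted p = 0.0176) and did not pass without control replicate 1 or 3 or hMGL replicate 4 or 6 (adjusted p of 0.0538 to 0.0595).

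TAF1D did not pass in that test, yet its noncoding classes traded places. Its transcripts annotated for nonsense-mediated decay had 101, 96.7 and 85.9 TPM in hMGL libraries, against 40.2, 37.6 and 34.0 TPM in control libraries. Those with a retained intron had 43.8, 39.0 and 39.7 TPM in hMGL libraries, against 99.8, 99.8 and 88.8 TPM in control libraries. The coding class had 35.8, 28.7 and 31.1 TPM in hMGL libraries, against 34.9, 36.9 and 35.0 TPM in control libraries, which overlap. TAF1D-205, of the decay class, had 26.1, 27.3 and 26.2 TPM in hMGL libraries and 5.62, 6.24 and 3.57 TPM in control libraries. On counts of coding transcripts alone TAF1D fell by 0.44 (adjusted p = 1.19e-05), against the fall of 0.11 of the gene sum. The values of the decay and retained-intron classes of TAF1D, chosen after they were seen, are given without a test of each class.

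**Figure D4:**
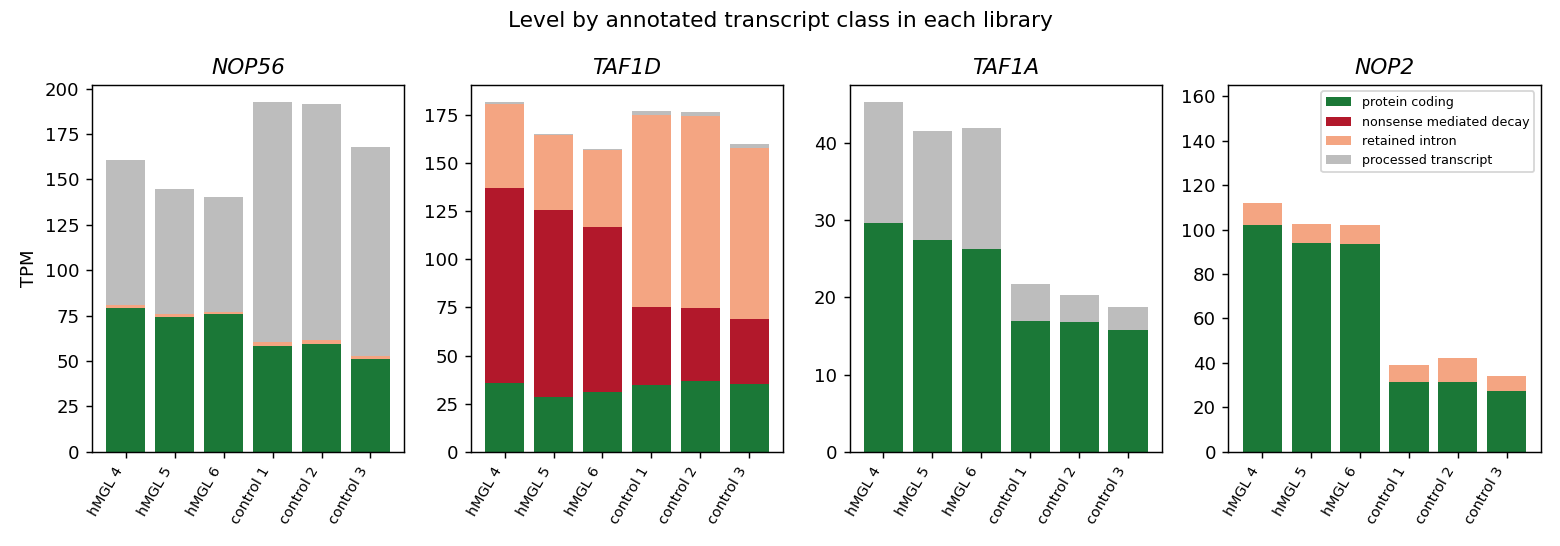
TPM by annotated transcript class (stacked) of NOP56, TAF1D, TAF1A and NOP2 in each library, hMGL on the left and control on the right; vertical axes start at 0 and differ between panels. In TAF1D the decay class is 85.9 to 101 TPM in hMGL libraries and 34.0 to 40.2 TPM in control libraries, and in NOP56 the coding class is 74.5 to 79.4 TPM in hMGL libraries and 51.1 to 59.5 TPM in control libraries.

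Within UTP15 and POLR1B the coding transcripts differed unequally between the groups. UTP15-202 had 36.0, 31.6 and 30.5 TPM in hMGL libraries, against 1.22, 0.665 and 2.20 TPM in control libraries, while UTP15-204 had 13.7, 12.9 and 15.2 TPM in hMGL libraries, against 12.8, 12.8 and 9.96 TPM in control libraries. In POLR1B the transcript POLR1B-201 had 13.1, 11.7 and 11.7 TPM in hMGL libraries, against 3.96, 3.94 and 3.51 TPM in control libraries, and POLR1B-204 had 9.98, 10.7 and 8.16 TPM in hMGL libraries, against 7.03, 5.98 and 6.99 TPM in control libraries. With an offset for effective length, the log2 fold change of POLR1B was 0.76 in place of 1.10. For both genes the hMGL values of UTP15-202 and POLR1B-201 lay above the control values, but how reads were shared between transcripts of one gene cannot be checked in these files. Genes with under 50% of their counts on coding transcripts in control cells were GAR1, NOP56, TAF1D and WDR12.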

How the data were processed

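RNA of 6 A375 cultures was sequenced on Illumina. The deposited tables, 1 per library, give per the file headers an estimated count, TPM, length and effective length for each of 244939 transcripts. The authors' TPM are scaled for effective length within a library, and the deposited expected counts are unscaled. Tools named in the submitters' processing notes are kallisto 0.45.0 and DESeq2 1.30.0, with no role stated. The genome build and index release are not given in the sources used here. Effective length exceeded length for 25.7% to 27.1% of transcripts.

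Transcripts were matched by identifier to GENCODE 29 (GRCh38): 203436 matched, and 41503 did not and were left out, so a gene's level can be part of its total. Estimated counts were summed to genes, rounded, filtered (filterByExpr, minimum count 10, minimum total 15), scaled by TMM and compared, hMGL over control, with edgeR 4.0.16 (quasi-likelihood F test, robust, two-sided, R 4.3.3). Benjamini-Hochberg adjustment covered the 22580 genes tested (threshold 0.05), and glmTreat tested against 1.5-fold. SE is the log2 fold change over the square root of F. The coding share used limma 3.58.1 for genes of at least 1 TPM with at least 0.1 TPM of other classes. Every p rests on the spread between these cultures, with the variance of each gene moderated by that of the other genes tested. Estimated counts also carry an error from dividing reads among transcripts and related genes, which these files do not give. The fit was also run on simulated counts, in which few genes changed and all had the same spread. These data, in which most genes passed, differ from that setting.

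The 58 genes, the other lists and the tests were chosen with earlier results of these data known, so counts over a list are descriptions. The genes given in every library were 22 fixed by name or the 2 highest and 2 lowest of each step, and from the other pathway genes up to 2 each way per step with the lowest adjusted p. Transcripts of TAF1D, UTP15, NPM1, POLR1B and FBL and the gene LAS1L were chosen after their values were seen. Alternatives were DESeq2 1.42.0, other scalings and filters, an effective-length offset, limma on TPM, coding transcripts alone, and leaving out each library.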

Additional observations from a re-analysis of the deposited data

Results flagged for a closer look

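Transcripts that matched no gene, and so enter no comparison, took 5.13%, 5.11% and 5.05% of the estimated counts in hMGL replicates 4, 5 and 6, against 4.91%, 5.01% and 4.86% in control replicates 1, 2 and 3. All 3 hMGL shares lay above the control shares. Which genes these transcripts belong to was not analysed here, and their part in the levels of FBL, WDR12 or any other of the 58 genes was not tested.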

How the results depend on the processing

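No paired analysis was possible because the groups share no replicate number. Over 15 alternatives, 35 to 43 of the 58 genes rose, and 36 of 58 kept direction and call in each. Without 1 library, 38 to 42 rose and 12 to 14 fell. On TPM, 4 fell with limma at either pseudocount (1 or 0.1), and 13 or 14 calls were lost, the falls most of all; there the median of all genes was 0.03 or 0.08 on the log2 scale, and 0.06 with library totals alone. Reversed results were NOP56 (0.39) and DDX52 (0.15) on coding transcripts, and HEATR1 with library totals (0.0444), on TPM (0.0156 and 0.0159) and without hMGL replicate 4 or 5 (range without 1 library −0.0511 to 0.00701); the cause was not tested. The stricter filter, which drops genes with low counts, tested 9940 genes, with 4426 up and 4480 down. Both are larger shares of the genes tested than in the main fit. A 2-fold minimum left 9 of the 58 up and 1 down, and 2310 and 1797 of all genes. With a pseudocount of 1, the coding share rose for 9 of the 58 genes, and over all genes rose for 1273 and fell for 1747. Without 1 library, it rose for 326 to 362 and fell for 586 to 720 of all genes, and rose for 2 to 3 and fell for 3 to 6 of the 58. The 19 genes past 1.5-fold kept their direction in every alternative. The lowest count of any of the 58 genes in a library was 1031, which limits the precision of the least abundant ones.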
